A study of Mus musculus with 18 samples.

Results

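Basophils whose Cebpa genes were flanked by loxP sites (floxed, Cebpa f/f) were compared with and without 4-hydroxytamoxifen, on 3 arrays each. These 6 arrays, of 18 in the series, were chosen by their labels, and every probe with 1 gene symbol was followed: 21876 of 26423 probes, for 19084 genes. Treated floxed cells had received 100 nM 4-hydroxytamoxifen for 5 days, and untreated floxed cells none. All floxed cells were C57Bl/6 basophils of genotype Cebpa f/f RosaYFP/creER, kept for 5 days in medium with 20 ng/ml interleukin-3 (IL-3). Thus every culture carried the drug-activated Cre recombinase and the fluorescent reporter, and the treated floxed cells are labelled as Cebpa knockout. Cebpa+/+ RosaYFP/creER basophils were cultured in the same way with and without the same drug, on 3 arrays each. They show what the drug and the Cre it activates did where no Cebpa allele was floxed. A further pair of groups, of 3 arrays each, gave reference levels, namely bone marrow basophils taken 3 days after mice received an IL-3 complex and mast cells grown from bone marrow for 4 weeks with IL-3. No label states that the replicates were different mice or cultures, or that treated cells were sorted for the reporter, so p-values measure the spread between these arrays, which may be technical.

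C/EBPα, the product of Cebpa, is a basic leucine zipper transcription factor that directs myeloid progenitors towards granulocytes and also restrains their proliferation. Basophils and mast cells share the high-affinity IgE receptor and histamine-rich granules, but mast cells depend on the receptor KIT and the factor MITF, whereas mature basophils express little of either. CreER stays inactive until 4-hydroxytamoxifen binds its modified oestrogen receptor domain, and it then removes DNA between loxP sites. Treated and untreated floxed cultures thus differ in Cebpa, in exposure to the drug and in active Cre. Wild type cultures differ in the drug and in active Cre, whose effects cannot be told apart here.

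The floxed arrays were close in raw intensity, but treated and untreated arrays did not overlap in the following measures. Median probe intensity was 33, 35 and 34 with and 32, 31 and 30 without the drug. Mean intensity was 502, 525 and 524 with and 530, 577 and 569 without it. Between 49.8% and 51.7% of probes exceeded an intensity of 30, taken here as the background limit, with treated arrays higher. The median within-group SD of probes over an intensity of 100 was 0.102 log2 units in each floxed group. Values below are quantile-normalized intensities, given for replicates 1, 2 and 3 in that order or as mean ± SD. Fold changes are on the scale log2(intensity + 16), which understates changes of dim genes, with their standard error after ±. A gene rose or fell where limma's p, adjusted over all probes, was below 0.05. Over all genes 10.6% rose and 10.5% fell in floxed cells, and a list count near those shares is not a result about the list. In wild type cells 2294 of 19084 genes rose and 2166 fell. Wild type and interaction list counts were made with quantile normalization only.

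The basophil genes Mcpt8 and Cd200r3 were high in both floxed groups. Of 24 measured basophil markers, however, 3 rose and 6 fell with the drug, against 10.6% and 10.5% of all genes. Mcpt8, the basophil protease, measured 47633, 49517 and 47633 without and 49517, 57785 and 45980.2 with the drug, and did not pass the test (log2 fold change 0.076 ± 0.11). Cd200r3, an activating receptor of basophils, measured 26053, 21574 and 23056 without and 23885, 23486 and 26747 with the drug (log2 fold change 0.07 ± 0.094), also short of the test. Over 24 measured basophil markers the summed intensity on a common scale with the mast cell arrays was 256037 to 259616 without and 241586 to 256826 with the drug, against 120005 to 123686 in mast cells. Itga2b, Cyp11a1 and Hgf of that list were at background in both floxed groups. The sum over 21 mast cell markers was 143762 to 146099 without and 206127 to 219469 with the drug. It was 308160 to 311921 in mast cells and 132938 to 135715 in fresh basophils. On that scale untreated floxed cells already exceeded fresh basophils in Kit (1515 ± 95.3 against 280 ± 19.9) and Cma1 (6226 ± 253 against 86.4 ± 6.99), members picked with their values in view. The mast cell markers Tpsab1, Gpr35, Mrgprb1 and Mrgprb2 were at background in both floxed groups. Cpa3, near saturation on every array, makes up part of each of these sums. In bulk RNA, fewer or more cells of a type and less or more RNA per cell cannot be told apart, here and for every gene below. The part of any contaminating or outgrowing cell type in the results was not tested.

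Cebpa itself checked the labels. Its intensity fell from 1019, 903 and 926 without the drug to 68.7, 69.0 and 57.5 with it (log2 fold change -3.58 ± 0.10, adjusted p = 5.96e-10), an 11.9-fold decrease with groups far apart. In wild type cells Cebpa measured 2219, 2533 and 2166 without and 2894, 2746 and 2472 with the drug, a difference that did not pass the test (log2 fold change 0.23 ± 0.10, adjusted p = 0.147). Treated floxed cells thus stood near the mast cells, at 65.5 ± 6.60 against 55.5 ± 9.13 on the 18-array scale, and remained above the background limit. Untreated floxed cells were lower in Cebpa than each wild type array. The sources used here do not place the Cebpa probe inside or outside the deleted segment.

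**Figure D1:**
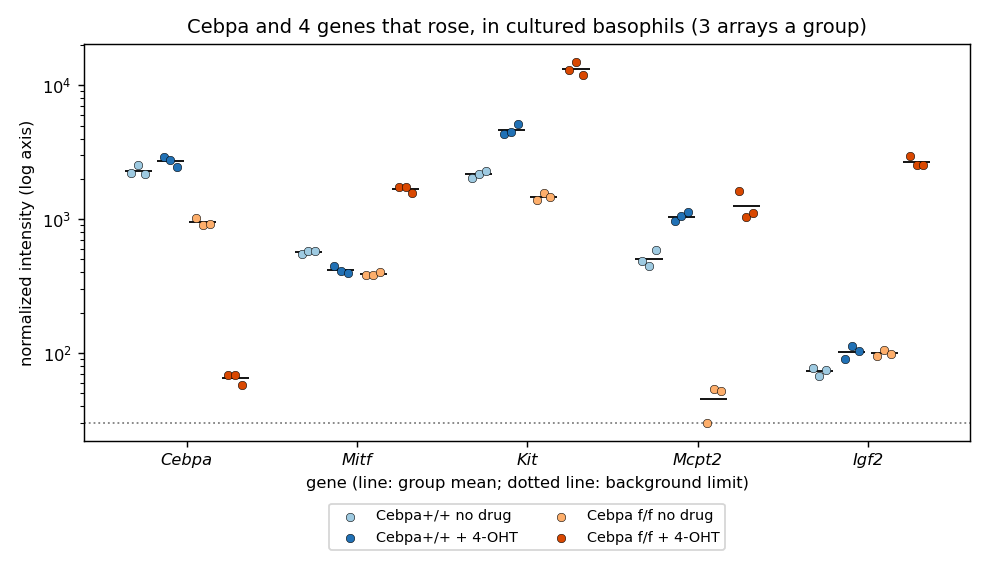
Normalized intensity (log axis) of Cebpa, Mitf, Kit, Mcpt2 and Igf2 on each of the 3 arrays of 4 groups of cultured basophils; short lines are group means and the dotted line is the background limit of 30. The treated floxed arrays were lowest for Cebpa, at 57.5 to 69.0, and highest for Mitf, Kit and Igf2; Mcpt2 averaged 1259 there and 1045 in treated wild type cells.

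Other C/EBP genes changed by less than Cebpa. Cebpd, a family member linked to inflammation, fell from 81.9 ± 9.19 to 31.4 ± 10.5 (log2 fold change -1.07 ± 0.16, adjusted p = 4.38e-04). Cebpb, active in emergency granulopoiesis, rose from 650.2 ± 89.8 to 1119 ± 144 (log2 fold change 0.77 ± 0.12) but rose likewise in wild type cells (1.07 ± 0.12). Cebpg, a partner without an activation domain, rose from 84.8 ± 11.2 to 159 ± 6.67 (0.80 ± 0.11), whereas its wild type difference was -0.26 ± 0.11 and the interaction passed the test. Of 9 measured genes of the C/EBP family and its regulators, 4 rose and 2 fell, with a median log2 fold change of -0.21 against -0.0022 over all genes.

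With the drug, 4526 of the 21876 probes with a symbol passed the test in floxed cells, 2296 higher and 2230 lower. Over all 26423 probes 4925 passed (18.6%), 2491 higher (9.43%) and 2434 lower (9.21%). Scaling the arrays to a common median in place of quantiles gave 1131 higher and 2018 lower, so the balance of directions depends on the scaling. By the brightest probe of each gene, 2022 genes rose (10.6%) and 2007 fell (10.5%). Changes of at least 2-fold were fewer, in 283 genes that rose (1.48%) and 269 that fell (1.41%), of which 31 and 43 passed 4-fold. In 6632 genes (34.8%) the 3 treated and 3 untreated arrays did not overlap.

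**Figure D2:**
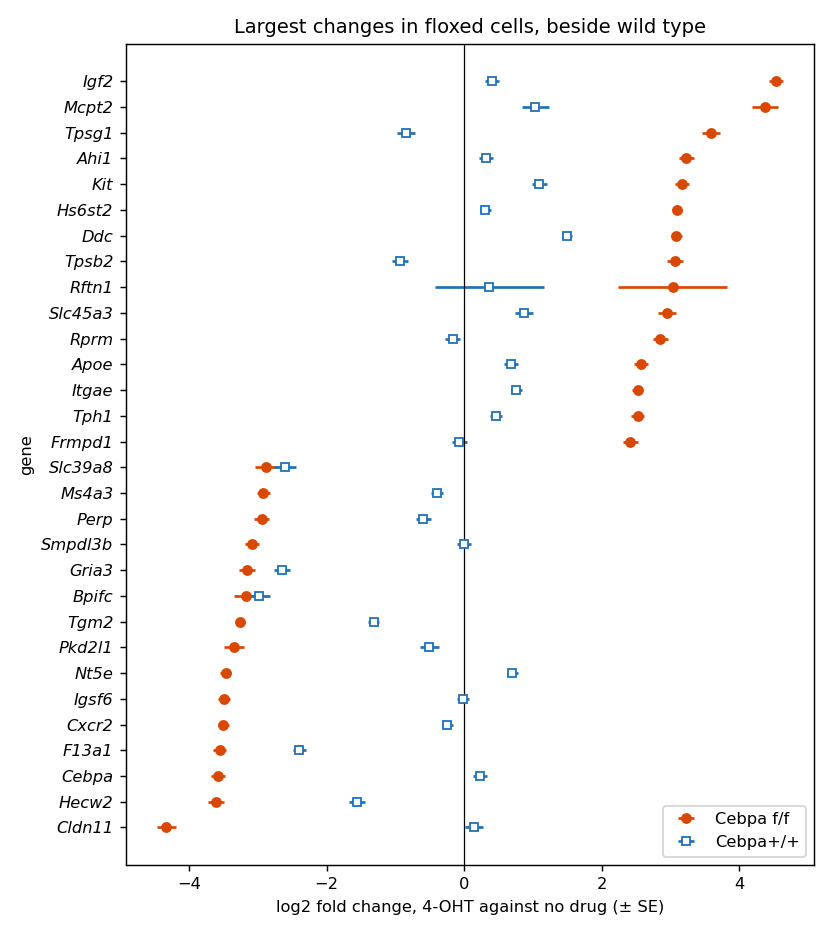
Log2 fold change by 4-hydroxytamoxifen (± SE, 3 arrays a group) of the 15 genes that fell most and the 15 that rose most in floxed cells (filled circles), with the same genes in wild type cells (open squares). The floxed values run from -4.33 for Cldn11 to 4.53 for Igf2; Bpifc, Gria3 and Slc39a8 lie close together in both genotypes.

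Genes that fell furthest included adhesion, receptor and ectoenzyme genes. Cldn11, a tight junction claudin, dropped from 580, 466 and 496 without the drug to 5.30, 16 and 10.4 with it (log2 fold change -4.33 ± 0.13, adjusted p = 1.20e-09); the treated arrays were at background, so the fall was at least 17.1-fold. Nt5e, which encodes the ectonucleotidase CD73 that makes adenosine, fell from 5556, 5361 and 5187 without the drug to 448, 498 and 468 with it (log2 fold change -3.47 ± 0.079, adjusted p = 1.74e-10). In wild type cells Nt5e moved the other way, by 0.70 ± 0.079. Cxcr2, a chemokine receptor typical of neutrophils, fell from 2810, 2794 and 2645 without the drug to 221, 235 and 228 with it (log2 fold change -3.50 ± 0.076, adjusted p = 1.74e-10). Igsf6, an immunoglobulin superfamily membrane protein, fell from 2644, 2328 and 2435 without the drug to 204, 196 and 213 with it (log2 fold change -3.49 ± 0.085, adjusted p = 1.91e-10). For each of these the 3 treated arrays lay far below the 3 untreated ones, and the wild type changes of Cldn11 and Igsf6 were 0.14 ± 0.13 and -0.02 ± 0.085, short of the test. Cxcr2 fell in wild type cells too, with a log2 fold change of -0.25 ± 0.076 (adjusted p = 0.0384).

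Smpdl3b, a membrane phosphodiesterase, fell from 3009, 2675 and 2716 without the drug to 318, 288 and 340.5 with it (log2 fold change -3.09 ± 0.10, adjusted p = 1.42e-09). Perp, a p53 target of cell junctions, fell from 3553, 3048 and 3097 without the drug to 378, 378 and 460.5 with it (log2 fold change -2.95 ± 0.11, adjusted p = 5.10e-09). Ms4a3, a marker of granulocyte and monocyte progenitors, fell from 482, 389.5 and 459 without the drug to 42.5, 44.7 and 46.0 with it (log2 fold change -2.92 ± 0.091, adjusted p = 1.29e-09). Again no treated array reached the lowest untreated one. Ms4a3 measured 8045 ± 331 in freshly isolated basophils, far above all cultured groups. Pkd2l1, a cation channel subunit, fell from 1015, 1116 and 1100.2 without the drug to 106, 106 and 66.2 with it (log2 fold change -3.35 ± 0.14, adjusted p = 1.55e-08), but its wild type level was low throughout, at 127 ± 13.8 without the drug. Perp, Ms4a3 and Pkd2l1 also fell in wild type cells, with log2 fold changes of -0.60 ± 0.11, -0.40 ± 0.091 and -0.51 ± 0.14, and Smpdl3b did not pass the test there (-0.0055 ± 0.10).

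Hecw2, F13a1 and Tgm2 fell in wild type cells by more than 2-fold. Hecw2, a ubiquitin ligase, fell from 876, 880 and 930.5 without the drug to 46.0, 65.3 and 67.2 with it (log2 fold change -3.61 ± 0.12, adjusted p = 1.66e-09), with -1.56 ± 0.12 in wild type cells. F13a1, the coagulation factor XIII subunit made by macrophages, fell from 1010.2, 874 and 986 without the drug to 59.4, 66.2 and 74.3 with it (log2 fold change -3.56 ± 0.093, adjusted p = 3.11e-10), with -2.40 ± 0.093 in wild type cells. Tgm2, tissue transglutaminase, fell from 9319, 10103 and 10219 without the drug to 1016, 1058 and 969 with it (log2 fold change -3.26 ± 0.078, adjusted p = 1.91e-10), with -1.32 ± 0.078 in wild type cells. For these 3 the floxed fall was the larger one, and the interaction passed the test with differences of -2.05 ± 0.17, -1.16 ± 0.13 and -1.95 ± 0.11.

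Bpifc, Gria3 and Slc39a8 fell strongly without floxed Cebpa alleles too. Bpifc, of the lipid-binding BPI family, fell from 480.3, 409 and 504 without the drug to 36.3, 36.7 and 38.0 with it (log2 fold change -3.17 ± 0.17, adjusted p = 9.41e-08), with a wild type change of -2.99 ± 0.17 and a difference between genotypes of -0.19 ± 0.24 (adjusted p = 0.702). Gria3, a glutamate receptor subunit, fell from 469.9, 499 and 532 without the drug to 38.2, 42.4 and 45.2 with it (log2 fold change -3.16 ± 0.11, adjusted p = 4.56e-09), with -2.65 ± 0.11 in wild type cells (adjusted p of the difference = 0.0660). Slc39a8, a zinc importer, fell from 148, 174 and 151 without the drug to 6.30, 3.00 and 14.8 with it (log2 fold change -2.88 ± 0.16, adjusted p = 1.74e-07), at least 5.24-fold, with -2.61 ± 0.16 in wild type cells (adjusted p of the difference = 0.536). The interaction did not pass the test for these 3, which does not show that the changes were equal.

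Among genes that rose, Igf2 stood first. Igf2, an imprinted fetal growth factor, rose from 95.2, 106 and 98.9 without the drug to 2964, 2551 and 2525 with it (log2 fold change 4.53 ± 0.10, adjusted p = 1.74e-10), a 23.2-fold increase. Its wild type change was 0.41 ± 0.10, and mast cells held only 59.7 ± 12.9. Mcpt2, a mucosal mast cell chymase, rose from 30.2, 53.9 and 51.8 without the drug to 1636, 1034 and 1105 with it (log2 fold change 4.37 ± 0.19, adjusted p = 1.91e-08). Untreated wild type cells already held 504 ± 71.8 of Mcpt2, and it rose there to 1045 ± 81.0 (log2 fold change 1.03 ± 0.19), so the treated groups were closer in level than the untreated ones. Kit, the stem cell factor receptor on which mast cells depend, rose from 1390.5, 1572 and 1452 without the drug to 13048, 14902 and 12018 with it (log2 fold change 3.16 ± 0.10, adjusted p = 1.78e-09). Kit also rose in wild type cells, from 2040.1, 2162 and 2285 to 4324, 4479 and 5109.5 (1.09 ± 0.10), and the change was larger in floxed cells by 2.07 ± 0.15 (adjusted p = 3.43e-06).

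The tryptase genes Tpsg1 and Tpsb2 rose, whereas Tpsab1 was at background in both floxed groups and Prss34, a tryptase of basophils, fell (-1.07 ± 0.081). Tpsg1, the membrane-anchored gamma tryptase, rose from 351, 472 and 477 without the drug to 5716, 5591 and 4785 with it (log2 fold change 3.59 ± 0.13, adjusted p = 4.56e-09), and Tpsb2, a secreted tryptase of mast cell granules, rose from 854, 1110.3 and 1102 without the drug to 8874, 9541 and 7538 with it (log2 fold change 3.07 ± 0.12, adjusted p = 6.99e-09). Both fell in wild type cells, with log2 fold changes of -0.85 ± 0.13 and -0.93 ± 0.12. Related tryptase genes are near-identical in sequence, so probes may share signal.

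Of the enzymes that make mast cell mediators, Ddc, Tph1 and Hs6st2 were among the 15 genes that rose most, whereas Hdc, which makes histamine, fell (-0.52 ± 0.088). Ddc, which decarboxylates the precursors of serotonin and dopamine, rose from 92.8, 97.2 and 91.5 without the drug to 910.4, 923 and 909 with it (log2 fold change 3.08 ± 0.076, adjusted p = 1.91e-10), and by 1.5 ± 0.076 in wild type cells. Tph1, the rate-limiting enzyme of peripheral serotonin synthesis, rose from 1399, 1374 and 1416 without the drug to 8755, 7792 and 7721 with it (log2 fold change 2.52 ± 0.09, adjusted p = 4.49e-09). Hs6st2, a heparan sulfate 6-O-sulfotransferase, rose from 486, 458 and 481 without the drug to 4037, 4436 and 4033 with it (log2 fold change 3.09 ± 0.077, adjusted p = 2.00e-10). The wild type changes of Tph1 and Hs6st2 passed the test too but were small, at 0.46 ± 0.09 and 0.30 ± 0.077.

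Further genes of this group had diverse roles. Ahi1, a ciliary scaffold gene next to Myb, rose from 484, 447 and 394 without the drug to 4059.9, 4119 and 4612 with it (log2 fold change 3.23 ± 0.11, adjusted p = 1.78e-09). Rprm, a p53-induced inhibitor of the G2 phase, rose from 332, 401 and 381 without the drug to 3288, 2626 and 2468 with it (log2 fold change 2.85 ± 0.11, adjusted p = 6.58e-09), and mast cells held 15299 ± 572 of it. Itgae, the integrin alpha E chain of mucosal lymphocytes and mast cells, rose from 274, 278 and 255 without the drug to 1759.7, 1585 and 1525 with it (log2 fold change 2.52 ± 0.082, adjusted p = 1.66e-09). The treated arrays of all 3 genes lay well above the untreated ones. Itgae also rose in wild type cells (0.76 ± 0.082), where Ahi1 (0.32 ± 0.11) and Rprm (-0.17 ± 0.11) did not pass the test.

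Apoe, the lipid carrier apolipoprotein E, rose from 206, 265 and 241 without the drug to 1489, 1505 and 1448 with it (log2 fold change 2.57 ± 0.11, adjusted p = 1.12e-08), although mast cells held only 60.0 ± 1.67. Slc45a3, a sugar transporter, rose from 108, 79.7 and 78.4 without the drug to 787, 692 and 882 with it (log2 fold change 2.94 ± 0.13, adjusted p = 2.26e-08). Frmpd1, a scaffold of G-protein signalling, rose from 175, 143 and 144 without the drug to 872, 817 and 979 with it (log2 fold change 2.41 ± 0.11, adjusted p = 2.47e-08). Apoe and Slc45a3 also rose in wild type cells (0.68 ± 0.11 and 0.87 ± 0.13), where Frmpd1 did not pass the test (-0.073 ± 0.11). Rftn1, a lipid raft protein, is the least secure of the 30: it measured -4.00, 196 and -2.0 without and 259.6, 254 and 245 with the drug (log2 fold change 3.03 ± 0.79, adjusted p = 0.0176). Untreated replicate 2 lay near the treated arrays and the others below 0, and 4 alternative analyses, 3 of them leaving out an array, left Rftn1 short of the test (adjusted p = 0.0503 to 0.0766).

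The drug, together with the Cre it activates, also acted without floxed Cebpa alleles. In wild type cells 5396 probes passed the test (20.4%), and 307 of them by at least 2-fold (1.16%), against 655 (2.48%) in floxed cells. With an offset of 50 in place of 16 before the logarithm these 2-fold counts were 157 and 406. By gene, 2294 rose and 2166 fell in wild type cells (23.4% together). Across 19084 genes the log2 fold changes of both genotypes, which share no array, had a Pearson correlation of 0.318, and 0.368 over 7064 genes above an intensity of 100 on all 12 arrays. Genes are not independent replicates, and these values are descriptions. Of 283 genes at least 2-fold higher in floxed cells, 20 (7.07%) were also 2-fold higher in wild type cells, which is 23.3% of the 86 wild type genes (0.451% of all genes). They included Mcpt2, Kit and Ddc. Of 269 genes at least 2-fold lower, 32 (11.9%) were also 2-fold lower in wild type cells, or 21.9% of 146 (0.765%). With the offset of 50, 11 of 181 floxed genes were 2-fold higher in both and 21 of 177 were 2-fold lower in both. The interaction passed for 2976 probes (11.3%), 1442 higher (5.46%) and 1534 lower (5.81%) in floxed cells. With median scaling the split was 414 to 1073, and with no scaling between arrays it was 2643 to 701; the median over all probes moved to -0.13 and 0.12.

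Opposite changes of at least 2-fold occurred in 5 genes, which were chosen for that after their values were seen. Clca1, a secreted regulator of chloride channels, rose from 197 ± 19.2 to 919.9 ± 101 in floxed cells (2.14 ± 0.10) and fell by 1.60 log2 units in wild type cells. Frzb, a secreted Wnt antagonist, rose from 147 ± 18.3 to 661 ± 52.9 (2.06 ± 0.10), with -1.27 ± 0.10 in wild type cells. Gzma, granzyme A, rose from 365 ± 18 to 1157 ± 87.7 (1.62 ± 0.088), with -1.54 ± 0.088 in wild type cells. Akr1c18, a progesterone-metabolising reductase, and Amigo2, a neuronal adhesion protein, went the reverse way, with -1.84 ± 0.12 and -1.05 ± 0.083 in floxed and 1.04 ± 0.12 and 1.69 ± 0.083 in wild type cells. The genotypes already differed without the drug in all 5. Wild type means without and with the drug were 956 and 306 for Clca1, 513 and 204 for Frzb, and 3422 and 1167 for Gzma. Treated groups were thus alike in Gzma. Akr1c18 averaged 1113 and 2313 in wild type cells, against 4360 and 1212 in floxed cells. Amigo2 averaged 806 and 2643, against 256 and 115.

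**Figure D3:**
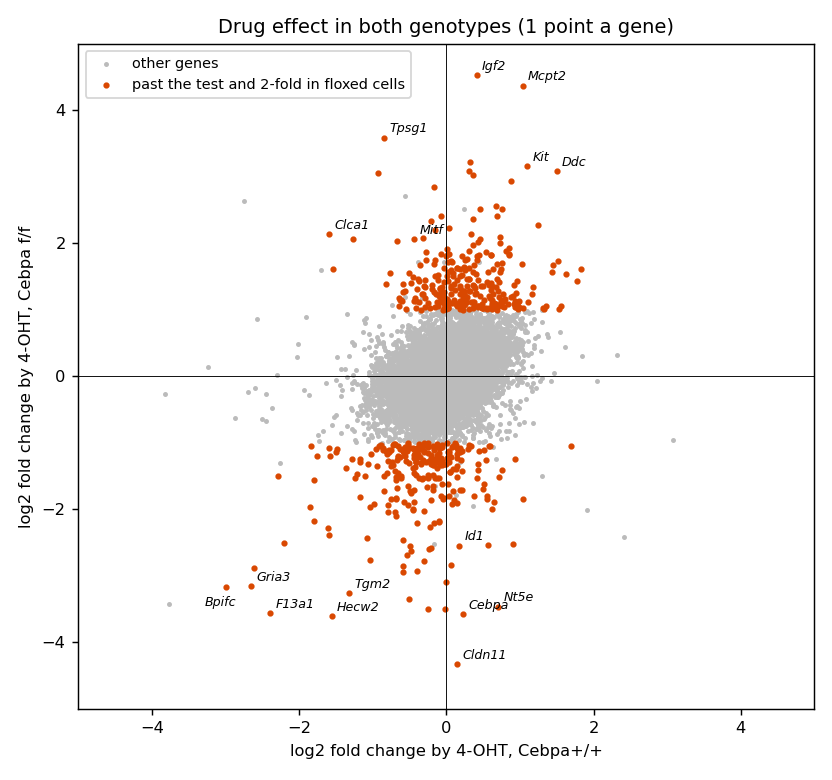
Log2 fold change by 4-hydroxytamoxifen in floxed cells (vertical) against wild type cells (horizontal), 1 point for each of 19084 genes; orange points passed the test at 2-fold or more in floxed cells. Cebpa and Cldn11 lie low near the vertical axis, at 0.23 and 0.14 in wild type cells, whereas Bpifc and Gria3 are low in both genotypes.

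Mast cells gave a scale for these changes. They were set against untreated wild type cultured basophils, 6 arrays that are not part of the floxed comparison; this axis was added after seeing the data, and its wild type arrays lend their spread to the floxed test. At 2-fold, 1298 genes (6.80%) were higher and 1492 (7.82%) lower in mast cells. Of the 283 genes at least 2-fold higher in treated floxed cells, 147 (51.9%) were higher in mast cells, which is 11.3% of the 1298. Of the 269 genes that were 2-fold lower, 204 (75.8%) were lower in mast cells, or 13.7% of the 1492. Against the axis went 29 genes that rose (10.2%) and 8 that fell (2.97%). A gene has to be expressed in cultured basophils to be lower in either comparison, which by itself makes that overlap more likely. The shares over all genes include 6757 genes at background in both floxed groups, and overlaps among expressed genes alone were not computed. Levels of mast cell genes that rose stood below, near or above those of mast cells. Mcpt2 reached 1298 ± 336 against 20585 ± 2286 in mast cells, Tpsb2 8839 ± 1019 against 23255 ± 2051, and Kit 13556 ± 1452 against 16618 ± 375. Cma1 was near the mast cell level, at 26829 ± 1691 against 27943 ± 1144. Hs6st2 reached 4267 ± 241 against 3483 ± 209, and Ddc 946 ± 8.13 against 415 ± 38.3, both above mast cells.

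**Figure D4:**
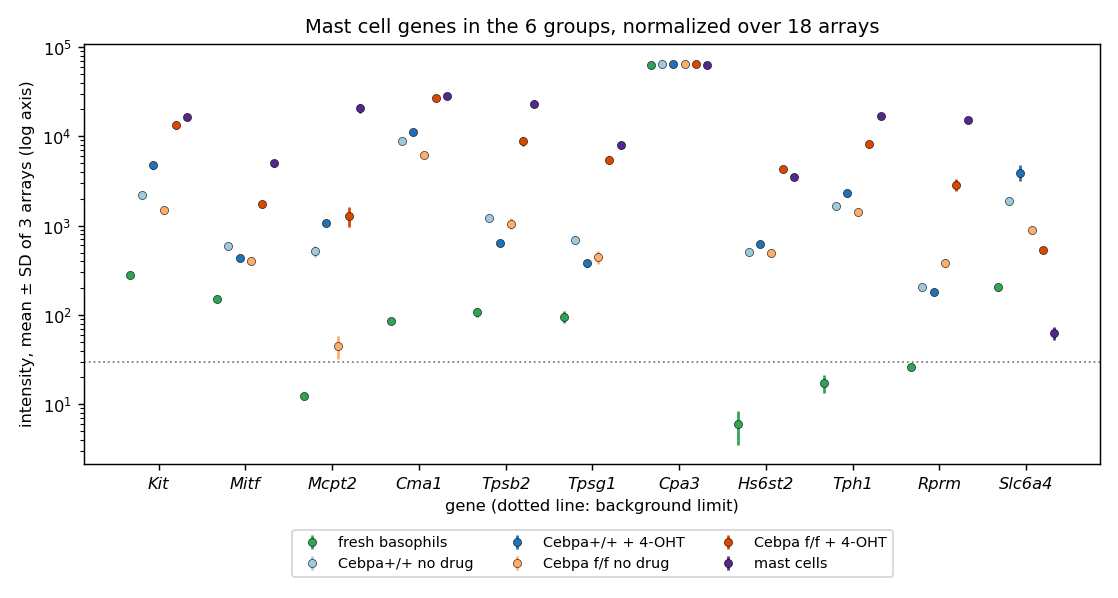
Intensity (mean ± SD of 3 arrays, log axis, normalized over 18 arrays) of 11 mast cell markers in fresh basophils, the 4 cultured groups and mast cells; the dotted line is the background limit. Treated floxed cells lie above untreated floxed cells for Kit, Mitf, Mcpt2, Cma1, Tpsb2, Tpsg1, Hs6st2, Tph1 and Rprm, Cpa3 is near the scanner's maximum everywhere, and Slc6a4 is lower.

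Transcription factors of both lineages changed in both directions. Mitf, the master factor of mast cells and melanocytes, rose from 384, 386 and 404 without the drug to 1751, 1733 and 1572 with it (log2 fold change 2.06 ± 0.081, adjusted p = 7.47e-09), and fell by 0.437 log2 units in wild type cells. Mast cells held 4985 ± 445 against 1736 ± 101 in treated floxed cells. Id1, an inhibitor of helix-loop-helix factors, fell from 4209 ± 194 to 708 ± 42.3 (log2 fold change -2.55 ± 0.11, adjusted p = 2.22e-08), while its relative Id2 rose from 9163 ± 1044 to 29989 ± 479 (log2 fold change 1.71 ± 0.12, adjusted p = 7.65e-07). Irf4, an interferon regulatory factor of lymphoid and dendritic cells, fell from 308 ± 30.8 to 69.3 ± 6.46 (log2 fold change -1.92 ± 0.11). Hes1, a Notch target, rose from 41.1 ± 3.73 to 170.3 ± 31.6 (1.70 ± 0.11) and Myb, a factor of progenitors, rose from 306 ± 13.2 to 928 ± 47.9 (1.55 ± 0.094). The wild type change of Hes1 was 1.03 ± 0.11, and Myb fell there by 0.768. Gata2, required by both lineages, was 9148 ± 326 without and 10713 ± 1421 with the drug, short of the test. In all, of 36 measured members, 15 rose and 9 fell, with a median of 0.13; with median scaling the counts were 11 higher and 10 lower.

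The promoter of Mitf holds a C/EBP core, the letters TTGCNNAA read on either strand. It is shown because Mitf rose where Cebpa fell. The window is the 250 bases before 1 of the gene's RefSeq start sites (chr6:97806808-97807057, GRCm38.p6, plus strand), with the match in capitals.
Mitf: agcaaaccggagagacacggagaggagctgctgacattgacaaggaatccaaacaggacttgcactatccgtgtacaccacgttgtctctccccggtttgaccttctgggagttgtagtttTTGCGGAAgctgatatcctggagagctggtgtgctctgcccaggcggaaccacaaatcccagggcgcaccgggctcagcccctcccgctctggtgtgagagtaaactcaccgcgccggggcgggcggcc

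Across promoters, the share holding the core was close to that of all genes. It stood in 20 of 218 genes (9.17%) that rose 2-fold and had a promoter in the table, in 23 of 219 (10.5%) that fell, and in 1467 of 14967 (9.80%) of all genes. The GATA motif AGATAA stood in 9.17%, 12.3% and 9.21%, and the E-box CACGTG, a motif of MITF, in 8.26%, 6.85% and 8.43%. Both strands of the 250 bases before each start were read, a gene counted once over its start sites, and none of the 3 motifs contains another. Of the 31 genes that lead the text, 24 had a promoter and 2 held the core, Hs6st2 and Mitf. The next sequences show matches in the genes with the largest changes among 2-fold genes that held the core and had a formal symbol. Those that fell were Fgd4, Tbc1d4 and P2ry10 (log2 fold changes -2.04, -2.0 and -1.94). Those that rose were Hs6st2 and Cd96 (3.09 and 1.84), besides Mitf above. Each sequence is cut to at most 30 bases on each side of the match, fewer where the window ends. All are printed along the gene's strand. The Fgd4 match reads on the opposite strand. They lie at chr16:16527440-16527507 (minus), chr14:101609320-101609387 (minus), chrX:107088280-107088347 (plus), chrX:51681813-51681852 (minus) and chr16:46120459-46120498 (minus). A match of letters is a description and not a binding site.
Fgd4: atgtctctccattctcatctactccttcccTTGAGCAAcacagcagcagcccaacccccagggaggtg
Tbc1d4: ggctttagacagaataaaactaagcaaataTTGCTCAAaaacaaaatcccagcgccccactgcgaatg
P2ry10: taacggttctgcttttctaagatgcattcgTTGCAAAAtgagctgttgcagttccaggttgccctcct
Hs6st2: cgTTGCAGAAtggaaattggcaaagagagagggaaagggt
Cd96: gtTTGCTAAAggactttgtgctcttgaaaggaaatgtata

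Most measured mast cell granule proteases rose: of 9 measured members, 6 rose and 0 fell, with a median of 1.35. Besides Mcpt2 and the tryptases, Cma1, a connective tissue chymase, rose from 6098 ± 240.5 to 27111 ± 1895 (log2 fold change 2.15 ± 0.083, adjusted p = 6.14e-09). Gzmb, granzyme B, rose from 15168 ± 1419 to 38595 ± 1723 (1.35 ± 0.09), with 0.67 ± 0.09 in wild type cells. Ctsg, cathepsin G, rose from 8456 ± 1478 to 15532 ± 1704 (0.89 ± 0.14). Mcpt9 and Tpsab1 were at background in both floxed groups. Cpa3, carboxypeptidase A3, was close to saturation at 65471, 65284 and 65284 without and 65284, 62054 and 65098 with the drug, so no difference could be measured.

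Over the wider mast cell list, of 21 measured members, 14 rose and 1 fell, with a median of 1.84, and these counts were the same with median scaling. Cd96, an adhesion receptor, rose from 595 ± 42.5 to 2179 ± 137 (1.84 ± 0.11), and Prnp, the prion protein, rose from 394 ± 46.1 to 1694 ± 97.6 (2.06 ± 0.11). Slc6a4, the serotonin transporter, was the only member that fell, from 852 ± 20.7 to 523 ± 27.0 (-0.69 ± 0.13), and it rose in wild type cells (1.06 ± 0.13). The members of this list were chosen with earlier results of these data known.

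Basophil markers changed less uniformly: of 24 measured members, 3 rose and 6 fell, and 15 passed in neither direction (1 to 2 higher and 6 to 7 lower over the other scalings: median, none, and probes above background). Prss34, a basophil tryptase also called mMCP-11, fell from 40335, 44217 and 41649 without the drug to 18850.2, 20722 and 20359 with it (log2 fold change -1.07 ± 0.081, adjusted p = 1.91e-06). Itga2, the CD49b integrin chain used to sort basophils, fell from 55.1, 80.8 and 71.7 without the drug to 17.1, 18.3 and 16.7 with it (-1.34 ± 0.11) and was at background in treated cells. Il4, a signature cytokine, fell from 346 ± 42.3 to 189 ± 26.1 (-0.82 ± 0.11), and by 0.604 in wild type cells. Ifitm1, an interferon-induced membrane protein, rose from 267 ± 4.86 to 1359 ± 46.8 (2.28 ± 0.086), with 1.25 ± 0.086 in wild type cells. Prss34 in mast cells was 1525 ± 97.5, far below every floxed array, as was Mcpt8 at 9411 ± 413.

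Heparin synthesis genes moved upward where they moved. Of 19 measured, 6 rose and 0 fell, with a median of 0.14; in wild type cells 6 rose and 3 fell. Papss2, which makes the sulfate donor, rose from 1194 ± 41.9 to 4266 ± 331 (log2 fold change 1.82 ± 0.086, adjusted p = 3.42e-08). Ndst2, the N-sulfotransferase needed for mast cell heparin, rose from 1571 ± 72.4 to 5406 ± 467 (log2 fold change 1.77 ± 0.10, adjusted p = 1.37e-07). Srgn, the serglycin core protein, was 17949 ± 1770.4 without and 19819.5 ± 2643 with the drug, short of the test.

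Histamine and serotonin genes split: of 11 measured members, 3 rose and 3 fell. Hdc, histidine decarboxylase, the enzyme that makes histamine, fell from 21333 ± 661 to 14890.3 ± 862 (log2 fold change -0.52 ± 0.088, adjusted p = 0.00116). Maob, a monoamine-degrading oxidase, rose from 84.5 ± 9.20 to 345 ± 34.9 (1.85 ± 0.10), with 0.85 ± 0.10 in wild type cells. RNA of Tph1 and Ddc, whose enzymes carry out both steps of serotonin synthesis from tryptophan, was thus higher, and that of the transporter Slc6a4 lower. Slc18a2, which loads monoamines into granules, was 4515 ± 405 without and 5446 ± 203 with the drug, short of the test.

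Eicosanoid genes showed no common direction: of 15 measured members, 5 rose and 5 fell (2 to 4 higher and 4 to 5 lower over the other scalings). Ptgs2, cyclooxygenase 2, fell from 232 ± 18.1 to 102 ± 4.30 (-1.06 ± 0.11), and Pla2g4a, the phospholipase that frees arachidonate, fell from 295 ± 28.2 to 152 ± 17.1 (-0.89 ± 0.13). Hpgds, the haematopoietic prostaglandin D synthase, rose from 331 ± 25.6 to 547 ± 63.9 (0.70 ± 0.10). Ltc4s, leukotriene C4 synthase, rose by 0.64 ± 0.081 with quantile normalization but not past the test with median scaling.

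In IgE receptor signalling, of 20 measured members, 6 rose and 3 fell, with 2 to 4 higher and 3 to 5 lower over the other scalings. Fcer1a, the IgE-binding chain, measured 18488, 17175 and 16512 without and 21789, 21708 and 24114 with the drug (0.37 ± 0.10, adjusted p = 0.0238), whereas Ms4a2, the beta chain, fell from 6593 ± 559 to 4089 ± 136 (-0.68 ± 0.093). Plcg2, a phospholipase below the receptor, fell from 1298 ± 28.8 to 764 ± 67.0 (-0.76 ± 0.087). Grap2, an adaptor, left the background, rising from 12.2, 7.30 and 10.1 without the drug to 58.2, 48.0 and 80.2 with it (1.58 ± 0.15). Of 19 exocytosis genes 4 rose and 5 fell, among them the syntaxins Stx11, which fell from 1714 ± 53.7 to 951 ± 51.1 (-0.84 ± 0.09), and Stx3, from 612 ± 14.1 to 338 ± 44.3 (-0.83 ± 0.11). Mlph, a Rab27 effector, rose from 44.8 ± 1.26 to 155 ± 8.45 (1.49 ± 0.076).

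**Figure D5:**
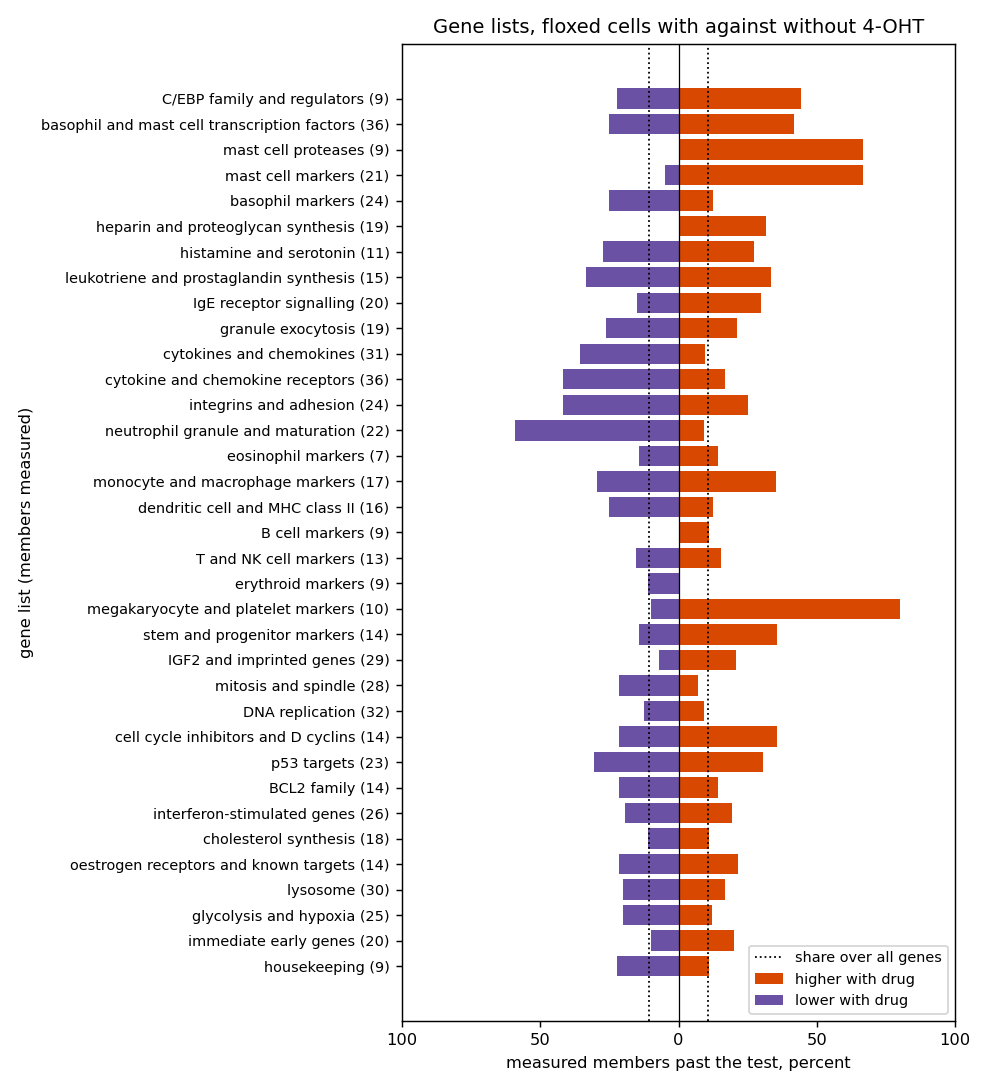
Percent of the measured members of 35 gene lists (number measured in brackets) that rose (orange, right) or fell (purple, left) past the test in floxed cells; dotted lines mark the shares over all genes, 10.6% and 10.5%. Among lists of over 10 members, mast cell markers reach furthest right, with 14 of 21, and neutrophil genes furthest left, with 13 of 22. Platelet genes reach further right, with 8 of 10. The lists were chosen with earlier results of these data known.

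Cytokine genes that changed were mostly lower: of 31 measured members, 3 rose and 11 fell (1 higher and 11 lower over the other scalings). Vegfa, the angiogenic factor, fell from 3913 ± 58.9 to 1775 ± 142 (-1.14 ± 0.088), and by 1.51 in wild type cells. Ccl9 and Ccl6, chemokines of the CC family, fell from 3467 ± 165 to 1845 ± 122 (-0.91 ± 0.092) and from 20387 ± 842 to 12069 ± 709.7 (-0.76 ± 0.081), with wild type changes of -0.16 ± 0.092 and 0.17 ± 0.081. Csf1, macrophage colony-stimulating factor, fell from 2608 ± 242 to 1536 ± 142 (-0.76 ± 0.10) and rose in wild type cells (0.57 ± 0.10). Il6 and Il13 were 10958 ± 1962 without and 9042 ± 1296 with the drug and 57.0 ± 8.23 without and 85.4 ± 5.98 with the drug, neither past the test.

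Among cytokine and chemokine receptors, of 36 measured members, 6 rose and 15 fell (3 to 7 higher and 13 to 14 lower over the other scalings). Il18r1 and Il18rap, the chains of the IL-18 receptor, fell from 1140.2 ± 90.6 to 385 ± 55.0 (-1.53 ± 0.11) and from 863 ± 61.7 to 394 ± 30.9 (-1.10 ± 0.088). Il2ra, the IL-2 receptor alpha chain, fell from 521 ± 76.8 to 148 ± 29.6 (-1.72 ± 0.14), and by 0.852 in wild type cells. Cx3cr1, the fractalkine receptor, rose from 423, 548 and 533 without the drug to 2516, 2398 and 2159.8 with it (log2 fold change 2.20 ± 0.12, adjusted p = 1.24e-07). Ccr2, which binds the chemokine CCL2, rose from 2052 ± 76.2 to 3963 ± 111 (0.94 ± 0.10) and fell by 1.34 in wild type cells. Il3ra, the receptor chain for the culture's growth factor, fell from 1675 ± 8.18 to 1138 ± 206 (-0.57 ± 0.12), with -0.34 ± 0.12 in wild type cells, and the interaction did not pass.

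Integrin and adhesion genes changed in both directions: of 24 measured members, 6 rose and 10 fell (3 to 6 higher and 11 to 12 lower over 3 other scalings). Itgam, CD11b, fell from 2777, 3446 and 3165 without the drug to 649, 708 and 650 with it (log2 fold change -2.20 ± 0.092, adjusted p = 1.35e-08), and its partner Itgb2, CD18, fell from 3395 ± 178 to 1459 ± 21.1 (-1.21 ± 0.085). Itga4, a chain of VLA-4, rose from 98.5 ± 25.7 to 333 ± 33.5 (1.63 ± 0.16). In wild type cells the changes were -0.10 ± 0.092 for Itgam, 0.056 ± 0.085 for Itgb2 and 0.15 ± 0.16 for Itga4, none past the test.

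Neutrophil granule and maturation genes, for which C/EBP factors are known regulators, had the largest share of falls among lists of over 10 members: of 22 measured members, 2 rose and 13 fell, with a median of -0.57. In wild type cells 6 rose and 8 fell. Mpo, myeloperoxidase, fell from 696, 608 and 608 without the drug to 87.1, 108 and 99.6 with it (log2 fold change -2.52 ± 0.095, adjusted p = 5.10e-09). Prtn3, proteinase 3, fell from 643, 501 and 542 without the drug to 73.6, 76.2 and 103 with it (log2 fold change -2.53 ± 0.13, adjusted p = 6.94e-08). Both rose in wild type cells, by 0.91 ± 0.095 and 0.56 ± 0.13. Padi4, the histone citrullinating enzyme, fell from 2858 ± 68.3 to 509 ± 28.7 (-2.45 ± 0.092), Lcn2, an iron-binding lipocalin, fell from 1990.2 ± 131 to 581 ± 32.7 (-1.75 ± 0.091), and S100a9, a calprotectin subunit, fell from 2677 ± 219.8 to 923 ± 95.1 (-1.52 ± 0.11). S100a8, its usual partner, was at background in both floxed groups. Ctsg, described above with the mast cell proteases, is also a member of this list and was among those that rose. The summed level of the 22 genes was 31677 to 33179 without and 26771 to 29407 with the drug.

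Markers of other blood cells were mixed. Of 17 monocyte and macrophage genes 6 rose and 5 fell, and their sum was 13233 to 14428 without and 13690 to 13939 with the drug. Adgre1, the F4/80 antigen, fell from 6004 ± 638 to 1589 ± 132 (-1.90 ± 0.12). Of 7 eosinophil genes 1 rose and 1 fell, the latter Siglecf (from 112 ± 6.54 to 46.4 ± 1.67, -1.04 ± 0.089). Among 16 dendritic cell and MHC class II genes 2 rose and 4 fell, led by the costimulator Cd86 (from 301 ± 33.1 to 123 ± 11.8, -1.18 ± 0.10). The B cell genes Ms4a1, Pax5, Ebf1 and Blk, the T and NK cell genes Cd3d, Cd4 and Ncr1, and the erythroid genes Alas2, Slc4a1 and Epor were at background in both floxed groups. Nkg7, a granule membrane protein of NK cells, rose from 187 ± 21.0 to 435 ± 32.2 (1.15 ± 0.10), with 0.77 ± 0.10 in wild type cells.

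Platelet genes rose in 8 of 10 cases and fell in 1, with a median of 0.69, but 6 of the 10 also rose in wild type cells. Pf4, platelet factor 4, rose from 4398 ± 574 to 8831 ± 1219 (1.0 ± 0.13), and Ppbp, a platelet chemokine precursor, rose from 211 ± 18.7 to 683 ± 85.3 (1.62 ± 0.11). The wild type changes were 0.22 ± 0.13 and 1.82 ± 0.11. The summed level of the list was 4715 to 5946 without and 9384 to 11832 with the drug, and 3200 to 3436 in mast cells. In wild type cells that sum was higher, at 11207 to 12892 without and 14191 to 15535 with the drug, so treated floxed cells did not exceed untreated wild type cells. Of 14 stem and progenitor genes 5 rose and 2 fell (2 to 5 higher and 2 lower over the other scalings), and only Kit changed by 2-fold.

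Around Igf2, other imprinted and insulin-like growth factor genes moved less. Of 29 measured members, 6 rose and 2 fell, and 13 of the 29 were at background in both floxed groups. H19, the noncoding RNA next to Igf2, rose from 39.9 ± 6.10 to 94.6 ± 12.5 (0.98 ± 0.11), and Igf2r, which clears IGF2, rose from 169.8 ± 0.529 to 383 ± 22.6 (1.10 ± 0.083). Igfbp7, a secreted binding protein, fell from 3698 ± 191 to 528 ± 21.9 (log2 fold change -2.77 ± 0.085, adjusted p = 1.20e-09); its second, dim probe did not pass. None of these changes passed the test in wild type cells except those of Igf2 (0.41 ± 0.10), Igfbp7 (-0.30 ± 0.085), Igfbp4 (0.43 ± 0.12) and Igf1r (0.44 ± 0.09).

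Cell cycle genes changed mostly by less than 2-fold. Of 28 mitosis genes 2 rose and 6 fell (0 to 1 higher and 2 to 5 lower over the other scalings), and of 32 replication genes 3 rose and 4 fell (0 higher and 3 lower with median scaling, 7 higher and 4 lower with none, 6 higher and 5 lower with scaling on probes above background). E2f2, an S-phase factor, fell from 262 ± 27.4 to 111 ± 2.77 (-1.12 ± 0.089), and Cdc45, a helicase cofactor, fell from 572 ± 37.9 to 342 ± 13.5 (-0.71 ± 0.08). No mitosis gene changed by 2-fold. Cdk6, a G1 kinase, rose from 36.8 ± 2.21 to 90.8 ± 7.57 (1.01 ± 0.17), against 1.53 ± 0.17 in wild type cells, and Cdkn2d, an inhibitor of it, rose by 0.90 ± 0.10 against 0.90 ± 0.10; neither interaction passed.

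Several targets of p53 responded differently in the genotypes. In floxed cells of 23 measured members, 7 rose and 7 fell (1 to 6 higher and 8 lower over the other scalings), whereas in wild type cells 11 rose and 1 fell. Of all 19084 genes, 2294 rose and 2166 fell in wild type cells. The interaction passed for 1 higher and 8 lower in floxed cells, against 6.41% and 6.58% of all genes. These wild type and interaction counts were not made with the other scalings. Over all probes, wild type directions depended on scaling, with 2068 higher and 979 lower by median scaling, and 1359 and 4681 with none. Gadd45a, a growth arrest gene, fell from 882 ± 47.2 to 472 ± 30.9 (-0.88 ± 0.083) and rose in wild type cells (0.94 ± 0.083). Pmaip1, the BH3 protein NOXA, fell from 286 ± 29.1 to 164 ± 11.7 (-0.75 ± 0.089), with 0.62 ± 0.089 in wild type cells. Btg2, an antiproliferative gene, changed by -0.72 ± 0.10 and 0.73 ± 0.10. Phlda3, an AKT repressor, rose in both, by 1.67 ± 0.10 and 1.45 ± 0.10. Of 14 BCL2 family genes 2 rose and 3 fell.

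Interferon-stimulated genes changed in both directions, 5 higher and 5 lower of 26. Ifi27l2a fell from 1531 ± 149 to 404 ± 43.9 (log2 fold change -1.88 ± 0.10, adjusted p = 8.82e-08), with -0.44 ± 0.10 in wild type cells, and Irf7, the master regulator of interferon genes, fell from 2374 ± 345 to 1429 ± 201 (-0.72 ± 0.12). The wild type level of Irf7 was higher, at 10543 ± 287 without the drug. So was the summed level of the 26 genes on the 18-array scale. Without the drug that sum was 69532 to 70788 in wild type and 18596 to 19921 in floxed cells. With the drug it was 67998 to 69362 and 19430 to 20417. Of 18 cholesterol synthesis genes 2 rose and 2 fell, near the shares over all genes (0 to 2 higher and 2 to 3 lower over the other scalings). In wild type cells 0 rose and 7 fell, where 2294 of all 19084 genes rose and 2166 fell. This wild type count was not made with the other scalings. The interaction passed for 4 genes, all higher in floxed cells, against 6.41% of all genes.

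Because the drug binds oestrogen receptors, their genes and targets were listed, and 3 of 14 rose and 3 fell; with each of the other scalings, with an offset of 50 and with dim probes left out, 5 or 6 were lower. Pgr, the progesterone receptor, fell from 85.2, 63.0 and 77.3 without the drug to 14.8, 17.2 and 16.7 with it (-1.5 ± 0.23) and reached background in both treated groups, with -2.29 ± 0.23 in wild type cells. Esr1, oestrogen receptor alpha, fell from 520.2 ± 11.9 to 318 ± 21.7 (-0.68 ± 0.083), and its wild type change was 0.11 ± 0.083. Pgr fell in both genotypes, and its interaction did not pass the test.

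Among lysosomal genes that changed were glycosidases. Glb1, beta-galactosidase, fell from 14819, 15995 and 13162 without the drug to 6043, 5097 and 6763 with it (log2 fold change -1.30 ± 0.11, adjusted p = 4.74e-06), and Gla, alpha-galactosidase, fell from 8765 ± 285 to 4143 ± 198 (-1.08 ± 0.075). Galc, galactosylceramidase, rose from 40.5 ± 3.42 to 107 ± 10.9 (1.12 ± 0.10). The wild type changes of Glb1 and Gla were -0.079 ± 0.11 and -0.10 ± 0.075, short of the test. In all 5 of 30 rose and 6 fell (3 to 4 higher and 7 to 8 lower over the other scalings). Of 25 glycolysis and hypoxia genes 3 rose and 5 fell (0 to 2 higher and 7 to 10 lower over the other scalings), Slc16a3, the lactate exporter, among the latter (from 1012 ± 106 to 573 ± 61.7, -0.80 ± 0.11).

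Immediate early genes, which can respond to cell handling, rose in 4 cases and fell in 2 of 20. Fos rose from 252 ± 27.1 to 576 ± 73.8 (1.14 ± 0.11) and Egr1 rose from 7170.2 ± 603 to 14854 ± 902 (1.05 ± 0.093), with wild type changes of 0.94 ± 0.11 and 0.69 ± 0.093; neither interaction passed. Ier5 rose by its brighter probe (1.74 ± 0.13), while its other probe fell. Of 9 housekeeping genes 1 rose and 2 fell, by at most 0.485 log2 units.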

How the data were processed

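RNA from 18 mouse samples was hybridized to single-dye arrays. The authors deposited linear probe intensity values that include some below 0, and how they were scanned or normalized beforehand is not stated in the sources used here. Probes were named from the platform annotation, 21876 with 1 symbol, 0 with several and 4547 with none, and the brightest probe over 12 arrays stood for a gene. No pair of arrays held identical values.

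Intensities of the 12 cultured basophil arrays were quantile normalized and transformed as log2(intensity + 16). A linear model with a mean for each group (limma 3.58.1, R 4.3.3, lmFit then eBayes) gave the floxed and wild type drug effects and their interaction, with two-sided p-values adjusted by Benjamini-Hochberg over 26423 probes against 0.05. Mast cells and untreated wild type basophils were normalized and fitted separately, as 6 arrays. A gene under 30 on all 3 arrays of a group was at background (a limit set with the values in view), and its fold is a bound against that limit.

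The text names the 15 genes with the highest and the 15 with the lowest log2 fold change among those past the test whose arrays did not overlap, Cebpa, Kit, Mcpt2, Igf2 and Mitf, and up to 6 members per list by size among those that passed. Genes named beyond these, and those that did not pass, were picked with their values in view. The members and the 35 lists (680 genes) were chosen with earlier results of these data known. Promoters are RefSeq's (GRCm38.p6). Replicate numbers were not used as pairs in the main fit. The fits were tested on simulated data. Alternatives were other scalings, offset, filters, variance model, samples in the fit, a replicate block, all probes averaged and each array left out; filters on dim and on switching probes were added after seeing the data. No genome sequence was used.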

Additional observations from a re-analysis of the deposited data

Results flagged for a closer look

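The drug effect differed between genotypes, by the interaction in limma's fit of 12 arrays, for 27 of the 31 genes that lead the report. Over all genes the interaction passed for 6.41% higher and 6.58% lower in floxed cells. The 31 were picked mainly by the size of their floxed change, which is part of the interaction, so their count is no separate support. Values are the floxed minus the wild type log2 fold change. Those lower in floxed cells were Cldn11 (-4.47), Nt5e (-4.17), Cebpa (-3.80), Igsf6 (-3.47), Cxcr2 (-3.26), Smpdl3b (-3.08), Pkd2l1 (-2.84), Ms4a3 (-2.52), Perp (-2.35), Hecw2 (-2.05), Tgm2 (-1.95) and F13a1 (-1.16).

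Others were higher in floxed cells. The differences were 4.44 for Tpsg1, 4.00 for Tpsb2, 3.34 for Mcpt2, 3.02 for Rprm, 2.79 for Hs6st2, 2.5 for Mitf, 2.07 for Kit, 2.06 for Tph1, 1.76 for Itgae and 1.59 for Ddc. For Igf2 the difference was 4.13, for Ahi1 2.91, for Frmpd1 2.49, for Slc45a3 2.07 and for Apoe 1.89. The values of Tpsg1 and Tpsb2 exceed their floxed change, as both fell in wild type cells, and Pkd2l1 was dim in wild type cells with the drug or without it.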

How the results depend on the processing

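An offset of 50 lowered the 2-fold probe counts from 655 to 406 in floxed cells, 307 to 157 in wild type cells and 673 to 399 in the interaction. With median scaling the floxed comparison had 3149 probes past the test, 1131 higher; the wild type comparison 3047, 979 lower; and the interaction 1487, 414 higher. With no normalization between arrays wild type cells had 1359 higher and 4681 lower, and the interaction 2643 higher and 701 lower. Leaving out an array in turn gave 3920 to 4563 probes in the floxed comparison, 4041 to 4884 in the wild type one and 2288 to 2893 in the interaction. The floxed 6 arrays alone gave 3766. The replicate number as a block gave 4414, 4858 and 2444 probes. Deviations of same-numbered arrays had correlations of -0.376, 0.0178 and -0.121 in floxed cells and 0.123, 0.0891 and 0.0106 in wild type cells. With 3 arrays a group these values cannot show whether the numbers pair samples. With median scaling 27 of 70 list counts moved over 1.5 times. Of 189 named genes, 28 lost the test with median scaling and up to 11 when an array was left out. With all probes of a gene averaged, H2-Eb1 (0.24) and Junb (0.015) changed sign, which shows their probes disagree. Cebpa kept its direction and its side of the threshold under every alternative run. The number of arrays limits the precision, and dim genes are bounded by the background.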

Other observations

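Genes ranked just below the 15 on each side, with no comparison of their own in the report, had these values. Among those that fell were Cxcr1, a second neutrophil chemokine receptor (1016 ± 25.1 without and 129 ± 14.1 with the drug; log2 fold change -2.83 ± 0.10), Pglyrp1, a granule peptidoglycan-binding protein (1058 ± 153 without and 162 ± 12.7 with the drug; -2.59 ± 0.11), Rnase12, of the ribonuclease family (2426 ± 194 without and 367 ± 75.9 with the drug; -2.69 ± 0.12), and Pi16, a secreted peptidase inhibitor (2184 ± 69.5 without and 339 ± 9.31 with the drug; -2.63 ± 0.074). In wild type cells their changes were 0.064 ± 0.10, -0.21 ± 0.11, -0.54 ± 0.12 and -0.49 ± 0.074. Mgl2, a lectin of macrophages and dendritic cells, fell from 5705 ± 431 to 1072 ± 314 (-2.44 ± 0.18), and by 1.07 in wild type cells. Among those that rose were Cpb1, a carboxypeptidase (102 ± 11.4 without and 483 ± 40.0 with the drug; 2.08 ± 0.10), Pigz, an enzyme of glycolipid anchors (57.2 ± 8.36 without and 327 ± 38.8 with the drug; 2.23 ± 0.12), and Cnga1, a cyclic nucleotide-gated channel (752 ± 74.2 without and 3846 ± 57.9 with the drug; 2.34 ± 0.093).

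Some changes in treated floxed cells ran against the mast cell axis. Mast cells differed from untreated wild type basophils by -4.65 log2 units in Cnga1, -7.13 in Gzma and -5.92 in Pf4, although all 3 rose in floxed cells. Mbp, myelin basic protein, was higher in mast cells (2.54) but fell to background in treated floxed cells, from 106, 109 and 113 without the drug to 5.30, 4.00 and 5.10 with it; both wild type groups were at background for it. A4galt, a glycolipid galactosyltransferase, was 2.19 log2 units higher in mast cells and fell by 2.51 in floxed and 2.20 in wild type cells.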
